A study of Mus musculus with 26 samples.

Results

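The question was whether the effect of Mettl3 knockdown on RNA levels in C2C12 cells differed between growth and differentiation. C2C12 is a mouse skeletal myoblast line that withdraws from the cell cycle and fuses into myotubes when serum is lowered. Of the 26 samples of the series, 8 bear on this, all of them RNA sequencing libraries of one cell line: Ctrl-GM and Cas9M3-GM (growth medium, day 0) and Ctrl-D3 and Cas9M3-D3 (differentiation medium, day 3), with 2 libraries in each of the 4 groups. Cas9M3 cells carry a lentiviral, puromycin-selected construct in which the ubiquitously active hUbC promoter drives dCas9-KRAB, a nuclease-dead Cas9 joined to a repressor domain, together with guides against the Mettl3 promoter. The design text speaks of knockout derivatives, whereas the study's methods describe this repression, and the label knockdown is used here. Which guides the sequenced cells carried, what the control cells carried and whether each line is 1 clone or a pool are not given in the sources used here. For every gene the knockdown effect in growth medium (Cas9M3-GM minus Ctrl-GM) was subtracted from that at day 3 (Cas9M3-D3 minus Ctrl-D3) on the log2 scale. This difference of differences is negative where knockdown cells stood lower against control at day 3 than they did in growth medium. Of 55487 gene identifiers, 13824 had at least 0.5 FPKM (fragments per kilobase of gene length, scaled to sequencing depth) in at least 2 libraries and were tested.

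METTL3 is the catalytic subunit of the complex that places N6-methyladenosine (m6A), a mark that reader proteins use to set the splicing, decay and translation of an RNA. Myoblasts turn into myotubes in an ordered way: MyoD and its relatives switch on myogenin, the fusion proteins myomaker and myomixer join the cells, and the genes for sarcomeres, calcium release and acetylcholine receptors follow. Double-stranded RNA is a known trigger of the interferon response, in which secreted interferon switches on a broad set of antiviral genes. These steps give the groups in which the genes are described below.

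The region that the construct is meant to repress is shown first, because every comparison starts from it. Mettl3 lies on chromosome 14 (52294841 to 52305128, minus strand, GRCm38), and it shares exonic sequence with Tox4, which is transcribed in the opposite direction. The window below is chr14:52305075-52305374 of GRCm38.p6 (minus strand), from RefSeq, with the 50 bases after the annotated start in capitals.
Mettl3 promoter: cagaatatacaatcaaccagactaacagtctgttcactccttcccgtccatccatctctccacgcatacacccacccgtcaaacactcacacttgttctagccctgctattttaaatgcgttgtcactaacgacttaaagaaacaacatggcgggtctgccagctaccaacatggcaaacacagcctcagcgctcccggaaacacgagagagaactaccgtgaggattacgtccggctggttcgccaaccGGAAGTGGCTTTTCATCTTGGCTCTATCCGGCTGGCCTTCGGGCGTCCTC

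Promoters of 3 genes that stand for these groups are shown with short motifs, because most members of each group had differences of differences of one sign. The windows run from 250 bases before to 50 bases after the RefSeq start (GRCm38.p6), and capitals mark matches on either strand to CAGCTG (an E-box that MyoD-like factors can bind) in Chrng, GAAANNGAA (the core of the interferon response element) in Ifi44 and TTTCCCGC (an E2F motif) in Cdc6. Chrng encodes the fetal receptor subunit, Ifi44 leads the interferon list and Cdc6 leads the replication list. Chrng does not lead the muscle lists. The window of Actc1, which has the lowest value there, held 0 matches to CAGCTG, as did that of Myog, and that of Ckm held 1. The windows are chr1:87205561-87205860 (plus strand), chr3:151749861-151750160 (minus strand) and chr11:98907901-98908200 (plus strand).
Chrng promoter: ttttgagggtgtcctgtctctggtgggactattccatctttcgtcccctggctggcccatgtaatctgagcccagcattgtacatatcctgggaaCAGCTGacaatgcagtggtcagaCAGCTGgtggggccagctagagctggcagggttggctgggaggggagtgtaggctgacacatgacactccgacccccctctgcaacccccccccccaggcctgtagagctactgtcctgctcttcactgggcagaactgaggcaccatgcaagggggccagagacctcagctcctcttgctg
Ifi44 promoter: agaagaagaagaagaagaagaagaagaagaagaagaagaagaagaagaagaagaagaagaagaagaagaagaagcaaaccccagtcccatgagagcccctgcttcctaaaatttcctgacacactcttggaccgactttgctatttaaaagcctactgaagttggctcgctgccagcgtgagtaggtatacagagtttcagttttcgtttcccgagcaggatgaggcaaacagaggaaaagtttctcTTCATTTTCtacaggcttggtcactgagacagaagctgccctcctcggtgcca
Cdc6 promoter: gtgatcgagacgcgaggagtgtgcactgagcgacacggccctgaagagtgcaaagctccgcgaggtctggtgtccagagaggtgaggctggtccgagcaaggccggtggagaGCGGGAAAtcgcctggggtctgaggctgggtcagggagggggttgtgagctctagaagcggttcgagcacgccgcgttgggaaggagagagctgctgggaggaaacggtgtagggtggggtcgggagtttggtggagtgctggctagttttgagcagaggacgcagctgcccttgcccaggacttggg
CAGCTG was present in 37 of 88 windows (42%) of the 75 contractile, calcium handling and receptor genes of 105 that matched the table, against 16.3% of all 32851 windows. GAAANNGAA was present in 19 of 38 windows (50%) of 32 matched interferon genes of 43, against 8.56%, and TTTCCCGC in 6 of 35 windows (17.1%) of 30 matched replication genes of 38, against 1.07%. The lists were drawn up from knowledge of these genes, so the shares are a description of them. A match is not a binding site.

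Mettl3 RNA was low in all 4 knockdown libraries and its level there was similar in both stages. It stood at 4.70 and 5.65 FPKM in Ctrl-GM, 0.331 and 0.118 in Cas9M3-GM, 4.68 and 5.15 in Ctrl-D3, and 0.148 and 0.0805 in Cas9M3-D3. The control and knockdown libraries did not overlap in either stage. The knockdown effect on the log2(FPKM + 0.1) scale was -4.10 in growth medium and -4.56 at day 3, where Mettl3 fell (limma, adjusted p = 0.019), although the growth medium effect did not pass adjustment. The difference of differences was -0.47 (SE 0.57), adjusted p = 0.839, with a 95% confidence interval from -1.84 to 0.91. This interval spans 0, and without the Cas9M3-GM replicate 1 library the value was 0.03. The targeted gene was therefore low in the libraries labelled as knockdown in both stages, and reads from Tox4 and Mettl3 cannot be told apart where their exons overlap, since strand-specific counting is not given in the sources used here.

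Before the results, the libraries themselves differed in ways that touch them. The depth recovered from the smallest steps between values was 14230094 to 29567085 reads on genes per library, so that 1 read on a gene of 1 kb equals 0.0315 to 0.104 FPKM. Reads on 2 RNA features, Gm23935 and CT010467.1, took 0.412 to 0.536% of reads in the replicate 1 libraries but 8.21 to 11.3% in 3 replicate 2 libraries and 28.7% in Ctrl-GM replicate 2. The standard deviation of the log2 difference between replicates, over all tested genes, was 1.30 in Ctrl-GM and 0.97 in Cas9M3-GM, against 0.58 in Ctrl-D3 and 0.59 in Cas9M3-D3. Muscle genes were among those that separated the growth medium replicates: Myog stood at 11.1 and 12.7 FPKM in the replicate 1 libraries of Ctrl-GM and Cas9M3-GM and at 2.70 and 0.182 FPKM in the replicate 2 libraries. The part of these library differences in the results below was not tested, and for the main lists and genes the values without the 2 growth medium libraries of replicate 2, called the reduced fit below, are also given. Of the 7 myoblast and myotube markers, Myod1, Myf5, Cdh15, Des, Myog and Mymk were above 0.5 FPKM in every Ctrl-GM and Ctrl-D3 library and Myh3 in 3 of those 4. The labels do not say that the replicates are separate cultures, so the p-values measure the spread between these libraries, which may be technical.

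**Figure D1:**
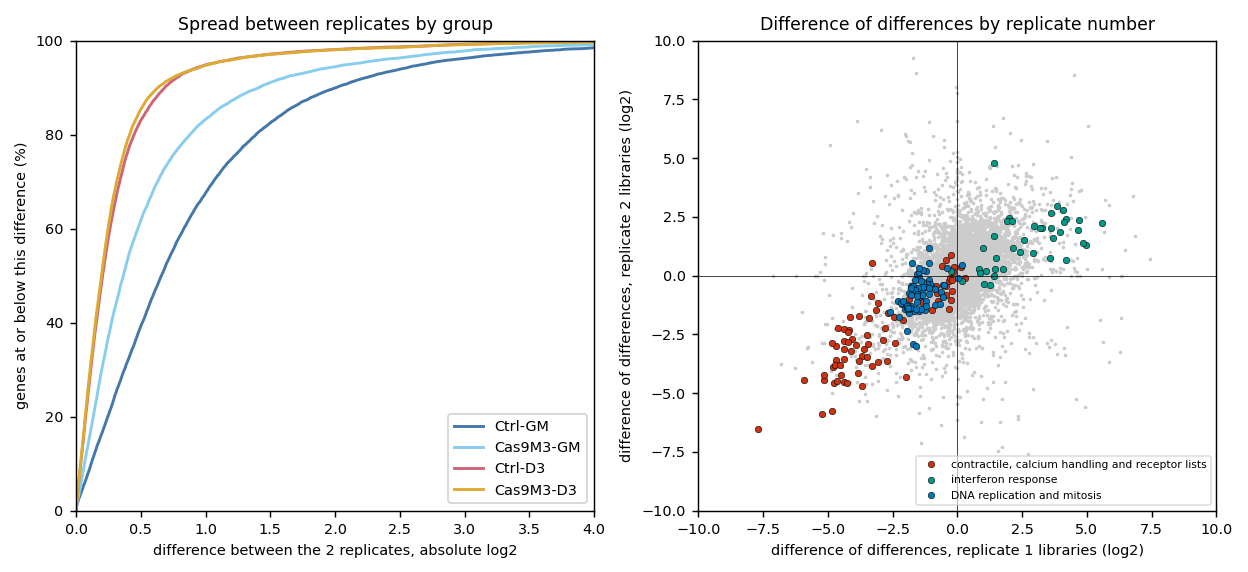
Left, the share of the 13824 tested genes (y axis, %) whose 2 replicates differ by no more than the value on the x axis (absolute log2 difference), one line for each of the 4 groups; the growth medium lines lie to the right of the day 3 lines. Right, the difference of differences from the replicate 1 libraries alone (x axis, log2) against that from the replicate 2 libraries alone (y axis, log2), grey for all tested genes and coloured for 3 sets of lists; the contractile genes lie to the lower left and the interferon genes mostly to the upper right.

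No gene passed adjustment for stage dependence, although the differences of differences were large. By limma, 0 of 13824 genes (0%) reached the threshold of 0.05 on the adjusted p, whose lowest value was 0.138, for Aif1l. At an unadjusted p under 0.05 there were 1198 genes, 668 lower (4.83%) and 530 higher (3.83%). The median over all genes was 0.00 and the quartiles were -0.41 and 0.45, with 5% of genes below -1.31 and 5% above 1.41, beside a median standard error of 0.47. In 593 genes the value was at least 2 in size, 292 of them lower and 301 higher. As a description with no test, the sign was also read in all 16 choices of 1 library per group, also across replicate numbers. It was negative in every choice for 1877 genes (13.6%) and positive in every choice for 1618 genes (11.7%). Both conditions, a size of at least 2 and 1 sign in all 16 choices, held for 409 genes, 219 lower and 190 higher. Without the 2 growth medium libraries of replicate 2, a choice made after seeing the data, each growth medium group has 1 library. That library is assumed to vary like the day 3 libraries, although the growth medium replicates differed more than those of day 3. Calls from that fit are therefore not used for the lists and genes below, and only its effect sizes are given.

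The fit above treats all libraries as unpaired, and the calls within each stage depend on this. In growth medium 0 genes (0%) passed the same threshold in limma, with 1244 at an unadjusted p under 0.05. At day 3, 274 genes were called, 179 higher (1.29%) and 95 lower (0.687%) in knockdown cells, and 165 of them changed by at least 2 on the log2 scale. With the replicate number as a block, which pairs the libraries, 505 were called, 319 higher and 186 lower. The unpaired day 3 calls rest on all 4 day 3 libraries: without any one of them, 0 genes were called, and without the 2 growth medium libraries of replicate 2 there were 2800; without Ctrl-GM replicate 1 or replicate 2 there were 886 and 887. A call at day 3 and none in growth medium does not show that the effects differ, which is what the difference of differences measures. The effects in growth medium and at day 3 had standard deviations of 0.64 and 0.91 across genes.

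**Figure D2:**
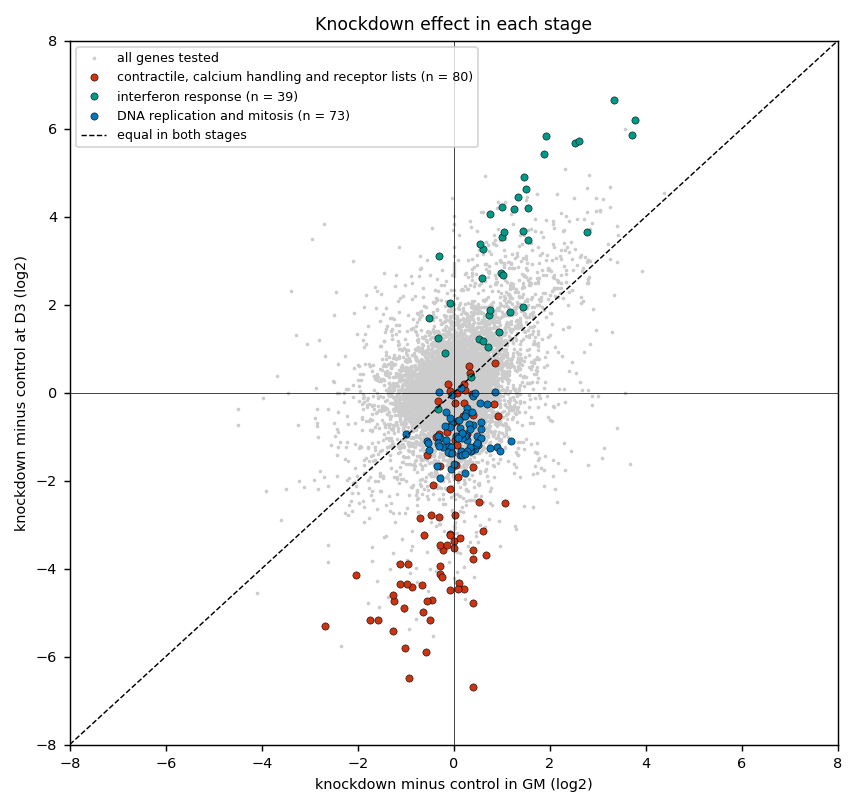
Knockdown effect in growth medium (x axis, log2) against the effect at day 3 (y axis, log2) for each tested gene, with the dashed line where both are equal and the vertical distance from it being the difference of differences. Genes of the contractile, calcium handling and receptor lists (red, 80) lie mostly below the line, down to -6.70 on the y axis, and the interferon genes (green, 39) lie above the line apart from Mavs and Irf1, which lie just below it.

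Contractile genes stood much lower in knockdown cells at day 3 and about level with control in growth medium. Some of the study's own assays of Mettl3 inhibition went in the other direction. They gave more MyHC protein by immunoblot and, on day 3, more fusion by staining and higher fusion gene RNA by RT-qPCR. The reason for this contrast was not tested. Before differentiation, the study reports by RT-qPCR a slight suppression of some genes, among them Myog, Mymk, Tnnc2, Tnni1 and Tnni2. Here their growth medium effects were -1.56, -0.44, -0.64, -1.04 and -0.57 in that order. None was called, and the library pairs of each had mixed signs. In bulk RNA, fewer cells of a kind and less RNA in each cell cannot be told apart, here and in every result below. In the list of troponins, tropomyosins and actins, the thin filament and its calcium switch, the median difference of differences was -3.39 over 19 tested members, beside 0.00 over all genes. Of these 19, 15 were negative in all 16 choices of libraries, against 13.6% of all genes, and 0 were positive. Actc1, the cardiac actin that early myotubes use, had the lowest value of any tested gene. Its level was 0.389 and 0.192 FPKM in Ctrl-GM, 1.16 and 0.101 in Cas9M3-GM, 95.9 and 86.1 in Ctrl-D3, and 1.09 and 0.547 in Cas9M3-D3. The day 3 groups stood far apart while the growth medium groups overlapped. The difference of differences was -7.11 (SE 1.18), adjusted p = 0.266, and -8.06 without the 2 growth medium libraries of replicate 2. Actc1 itself fell at day 3 (log2 -6.70, adjusted p = 0.026).

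The troponin subunits followed, fast and slow forms alike. Tnni2, the fast inhibitory subunit, was at 4.31 and 0.761 FPKM in Ctrl-GM, 2.73 and 0.509 in Cas9M3-GM, 20.7 and 28.9 in Ctrl-D3, and 0.359 and 0.273 in Cas9M3-D3. Only the day 3 groups were separate. Its difference of differences was -5.32 (SE 1.33), adjusted p = 0.371. Tnnc2, the fast calcium-binding subunit, was at 5.78 and 2.20 FPKM in Ctrl-GM, 5.19 and 0.953 in Cas9M3-GM, 33.2 and 36.4 in Ctrl-D3, and 0.987 and 1.02 in Cas9M3-D3, and its difference of differences was -4.34 (SE 1.10); its exons overlap those of the antisense gene Ube2c. Tnni1, the slow inhibitory subunit, was at 3.32 and 1.12 FPKM in Ctrl-GM, 3.09 and 0.212 in Cas9M3-GM, 20.5 and 22.3 in Ctrl-D3, and 0.568 and 0.681 in Cas9M3-D3, with -3.86 (SE 1.49). In both of these genes the Cas9M3-GM replicate 2 library was the lowest of the growth medium libraries. Without Cas9M3-GM replicate 1 the value of Tnni1 was -2.18. In the reduced fit Tnni2, Tnnc2 and Tnni1 were at -5.25, -4.83 and -4.79. Tnnt2, which binds tropomyosin in embryonic muscle, had -4.45 (SE 0.99). The tropomyosins had smaller values, from -1.11 (SE 0.32) for Tpm2 to -0.27 (SE 0.27) for Tpm3, and the cytoplasmic actin Actb had 0.12 (SE 0.58). Of the 19 members, 6 fell at day 3 in the fit of all 4 groups (0.687% of all genes were called lower), Actc1, Tnni2, Tnnt2, Tnnc2, Tnnc1 and Tmod1, and none did when 1 day 3 library was left out.

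The sarcomeric myosins and the scaffold around them gave a like picture. Over 8 tested members of the myosin list the median was -3.50, with 8 of 8 below 0 and 6 negative in all 16 choices (13.6% of all genes). Myh3, the embryonic heavy chain, was at 1.45 and 0.0513 FPKM in Ctrl-GM, 0.445 and 0.0180 in Cas9M3-GM, 39.3 and 21.0 in Ctrl-D3, and 0.272 and 0.180 in Cas9M3-D3. Its replicate 1 and 2 growth medium libraries differed more than its growth medium groups did, and the difference of differences was -5.55 (SE 1.69), adjusted p = 0.436. Myh1, an adult fast heavy chain whose exons overlap the antisense gene Myhas, was at 2.30 and 0.0326 FPKM in Ctrl-GM, 2.33 and 0.0772 in Cas9M3-GM, 4.86 and 2.27 in Ctrl-D3, and 0.0847 and 0.0321 in Cas9M3-D3. Its growth medium levels separated by replicate number and not by group, and its value of -4.67 (SE 2.33) did not keep 1 sign in all 16 choices. From the replicate 1 and replicate 2 libraries alone the value was -4.76 and -4.58. It was -2.58 without Ctrl-GM replicate 2 and -2.78 without Cas9M3-GM replicate 1. Myl4, the embryonic light chain, had -3.85 (SE 0.80) and Myl6b had -2.01 (SE 0.35), and both fell at day 3 (adjusted p = 0.030 and 0.026). Myh7, the slow heavy chain, was below the filter and was not tested. In the scaffold list of Z disc, M band and titin-related genes the median was -2.72 over 22 tested members, 13 of them negative in all 16 choices (13.6% of all genes) and 0 positive. Mybph, a myosin-binding protein, had the lowest value there, -4.80 (SE 2.73), with a mixed sign and a range from -7.45 to -2.15 over the libraries left out. From the replicate 1 and replicate 2 libraries alone Mybph had -5.17 and -4.43. Myom3, an M band protein, had -4.36 (SE 1.09). The giant proteins titin (Ttn, -3.36 (SE 1.08)) and nebulin (Neb, -3.42 (SE 1.21)) kept 1 sign in all 16 choices. Fbxo32 and Trim63, ubiquitin ligases of muscle atrophy held in the same list, were at 0.11 (SE 1.06) and 0.33 (SE 2.32). The error of Trim63 does not set it apart from the list median of -2.72.

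Genes for calcium release and for the acetylcholine receptor were mostly of the same sign. Over 21 tested members of the calcium list the median was -2.96, and 16 were negative in all 16 choices (13.6% of all genes) with 0 positive. Atp2a1, the fast calcium pump of the sarcoplasmic reticulum, was at 2.50 and 0.387 FPKM in Ctrl-GM, 4.57 and 0.376 in Cas9M3-GM, 16.3 and 10.4 in Ctrl-D3, and 0.382 and 0.372 in Cas9M3-D3. Replicate 1 libraries of both lines were the higher ones in growth medium, and the difference of differences was -5.19 (SE 1.67), adjusted p = 0.462. Stac3 and Ryr3, parts of the release machinery, fell at day 3 (adjusted p = 0.027 and 0.023) and had differences of differences of -3.96 (SE 0.77) and -3.71 (SE 0.71), as did the channel subunit Cacng1, -3.76 (SE 0.66). Atp2a2, the housekeeping pump, had -1.22 (SE 0.53), and the store-entry genes Stim1 and Orai1 had 0.27 (SE 0.57) and -0.09 (SE 0.42). In the receptor list the median was -2.21 over 10 tested members, 7 negative in all 16 choices (13.6% of all genes). Chrng, the fetal gamma subunit of the receptor, was at 1.22 and 0.547 FPKM in Ctrl-GM, 0.868 and 0.0523 in Cas9M3-GM, 15.0 and 12.1 in Ctrl-D3, and 0.431 and 0.491 in Cas9M3-D3. Ctrl-D3 stood above all other libraries by a wide margin, and the difference of differences was -3.33 (SE 1.19), adjusted p = 0.518. For Chrng it was -1.999 without Cas9M3-GM replicate 1 and -4.15 in the reduced fit. Chrnd, the delta subunit, had -4.68 (SE 1.45), and Agrn, the nerve-derived organizer of the junction, -0.19 (SE 0.39). Without Cas9M3-GM replicate 1 the medians of the thin filament, myosin, scaffold and calcium lists were smaller, at -2.18, -2.23, -1.48 and -1.47, the scaffold list was at -1.80 without Ctrl-GM replicate 2, and the calcium list was at -1.47 and -1.65 without Ctrl-D3 replicate 1 and 2. In the reduced fit the medians of the thin filament, myosin, scaffold, calcium and receptor lists were -3.94, -4.62, -2.89, -3.65 and -2.60 in that order. From the replicate 1 libraries alone they were -3.68, -4.50, -2.97, -3.44 and -2.61. The replicate 2 libraries alone gave smaller sizes, -2.87, -2.66, -2.53, -1.77 and -1.64.

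**Figure D3:**
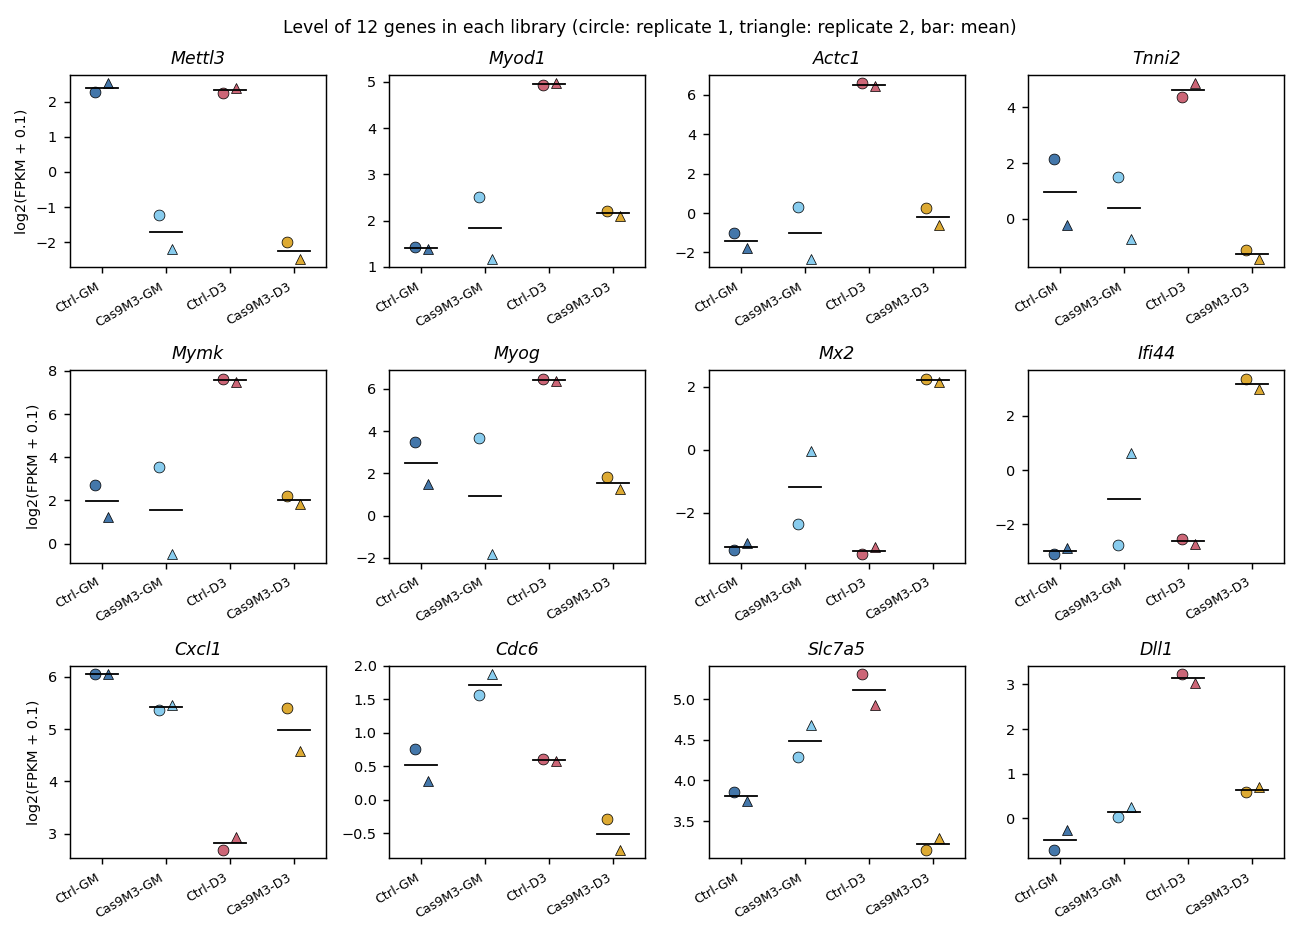
Level of 12 genes (y axis, log2 of FPKM + 0.1, a separate scale for each gene) in each library of the 4 groups (x axis), circles for replicate 1, triangles for replicate 2 and bars for the group means. Muscle genes such as Actc1 and Mymk are high in Ctrl-D3 alone, Mx2 and Ifi44 are high in Cas9M3-D3, and the growth medium replicates of Myog lie far apart.

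Upstream of these genes, Myod1 and some fusion genes had the same direction, while most other regulators did not keep 1 sign over the choices of libraries. Myod1, the transcription factor that starts the muscle program, was at 2.59 and 2.50 FPKM in Ctrl-GM, 5.58 and 2.17 in Cas9M3-GM, 30.5 and 31.2 in Ctrl-D3, and 4.55 and 4.17 in Cas9M3-D3. In growth medium the groups overlapped, and at day 3 the knockdown level was far below control, a fall with adjusted p = 0.034. For Myod1 the difference of differences was -3.24 (SE 0.57), adjusted p = 0.266, and the sign was the same in all 16 choices. Myog, encoding myogenin, was at 11.1 and 2.70 FPKM in Ctrl-GM, 12.7 and 0.182 in Cas9M3-GM, 89.1 and 83.3 in Ctrl-D3, and 3.50 and 2.28 in Cas9M3-D3. The difference of differences was -3.32 (SE 2.35) with a mixed sign, and -4.83 and -1.82 from the replicate 1 and replicate 2 libraries alone. Cas9M3-GM replicate 2 alone was far below the other growth medium libraries. The value was -5.08 without both replicate 2 libraries of growth medium and -0.57 without Cas9M3-GM replicate 1. Mef2a, a partner of MyoD, had -1.83 (SE 0.41) and fell at day 3 (adjusted p = 0.048). Over the 10 tested regulators the median was -1.10, and -0.07 without Ctrl-GM replicate 2. Of the 10, 2 were negative in all 16 choices, Myod1 and Mef2a, near the share of all genes (13.6%).

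Mymk, encoding myomaker, which prepares both membranes for fusion, was at 6.49 and 2.26 FPKM in Ctrl-GM, 11.8 and 0.613 in Cas9M3-GM, 199 and 179.9 in Ctrl-D3, and 4.58 and 3.47 in Cas9M3-D3. Both Ctrl-D3 libraries were far above all others, while in growth medium the 2 Cas9M3 libraries lay on either side of the control ones. That gave -5.09 (SE 1.74), adjusted p = 0.485, with -3.06 without Cas9M3-GM replicate 1 and -6.38 in the reduced fit. Mymx, encoding myomixer, was at 1.07 and 0.101 FPKM in Ctrl-GM, 1.08 and 0.106 in Cas9M3-GM, 7.56 and 11.6 in Ctrl-D3, and 0.559 and 0.265 in Cas9M3-D3, again high in Ctrl-D3 alone, with -4.30 (SE 1.53), adjusted p = 0.514, and -4.28 in the reduced fit. Among cell surface genes of the lineage, the cadherin gene Cdh15 had -3.57 (SE 0.95), and Cdon, a receptor that cadherins signal through, had -2.45 (SE 0.31) and fell at day 3 (adjusted p = 0.020). The widely used adhesion, membrane and small GTPase genes of the same list had smaller values, with -0.56 (SE 0.28) for Itgb1, 0.38 (SE 0.27) for Rac1 and 0.62 (SE 0.70) for Cd9. In all, 24 of the 30 fusion genes were tested, their median was -0.57 (-0.33 in the reduced fit), 9 were negative and 2 positive in all 16 choices (13.6% and 11.7% of all genes), and 2 fell at day 3 (0.687% of all genes), Cdon and Arhgef2.

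Interferon response genes stood the other way. Over 39 tested members of 43 the median difference of differences was 2.22 and 37 were above 0. Of the 39, 26 were positive in all 16 choices of libraries, against 11.7% of all genes, and 0 were negative. At day 3, 13 of the 39 rose (1.29% of all genes were called higher) and 0 fell. In growth medium 0 were called, with 9 at an unadjusted limma p under 0.05, all higher. Among all 13824 genes, 762 were higher and 482 lower at that p. The median knockdown effect of the interferon list was 1.01 in growth medium and 3.37 at day 3. Ifi44, an interferon-induced gene, was at 0.0154 and 0.0338 FPKM in Ctrl-GM, 0.0465 and 1.43 in Cas9M3-GM, 0.0714 and 0.0490 in Ctrl-D3, and 10.3 and 7.92 in Cas9M3-D3. Control libraries were near 0 in both stages, Cas9M3-GM replicate 2 was above Cas9M3-GM replicate 1, and both Cas9M3-D3 libraries were the highest. For Ifi44 the difference of differences was 3.91 (SE 1.45), adjusted p = 0.531, with 2.21 without Cas9M3-GM replicate 1 and 5.49 in the reduced fit. Mx2, an interferon-induced gene that the annotation lists as a polymorphic pseudogene in the mouse, was at 0.00870 and 0.0287 FPKM in Ctrl-GM, 0.0964 and 0.859 in Cas9M3-GM, 0 and 0.0166 in Ctrl-D3, and 4.65 and 4.37 in Cas9M3-D3. It showed the same order of libraries, with 3.54 (SE 1.09), adjusted p = 0.436.

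The split between the Cas9M3-GM replicates ran through the list. Ifit1, which binds foreign RNA ends, was at 0.225 and 0.975 FPKM in Ctrl-GM, 1.83 and 18.5 in Cas9M3-GM, 0.645 and 1.36 in Ctrl-D3, and 112 and 98.4 in Cas9M3-D3, and Ifit3 was at 1.57 and 5.46 FPKM in Ctrl-GM, 2.02 and 25.03 in Cas9M3-GM, 12.5 and 14.4 in Ctrl-D3, and 248 and 237 in Cas9M3-D3. In both, Cas9M3-GM replicate 2 was higher than replicate 1 by more than the control libraries differed. Their differences of differences were 3.32 (SE 1.54) and 2.91 (SE 1.59). Ifit3 has a near-identical copy, Ifit3b, and reads of multigene families such as these may be split between copies, so their levels are uncertain. Members whose growth medium replicates lay closer had smaller errors: the GTPase gene Gbp2 had 2.22 (SE 0.36), Iigp1 2.82 (SE 0.54) and Dhx58, an RNA helicase that tunes RNA sensing, 3.31 (SE 0.66). These rose at day 3 (adjusted p = 0.037, 0.023 and 0.023). Irf9, a transcription factor of the response, had 1.65 (SE 0.45) and rose at day 3 (adjusted p = 0.024). The RNA sensor gene Ifih1 was called at day 3 (adjusted p = 0.036) but was already 2.78 on the log2 scale in growth medium, so that its difference of differences was 0.86 (SE 0.77). Adar, which edits double-stranded RNA, had 0.56 (SE 0.47), and Irf1 and Mavs had -0.03 (SE 0.30) and -0.01 (SE 0.26). Ifnb1, encoding interferon beta, was at 0 in 7 libraries and at 0.091 FPKM in Cas9M3-D3 replicate 2. Without Cas9M3-GM replicate 2 the list median was 3.15 and without Cas9M3-GM replicate 1 it was 1.18. Without both growth medium libraries of replicate 2 it was 2.58.

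Chemokines and cytokines were less uniform. The median was 1.64 over 15 tested members of 23, with 5 positive and 1 negative in all 16 choices (11.7% and 13.6% of all genes). It was 0.82 without Ctrl-GM replicate 1 and 2.10 in the reduced fit. From the replicate 1 and replicate 2 libraries alone the median was 2.33 and 0.65. At day 3, 3 members rose and 1 fell (1.29% and 0.687% of all genes). Cxcl1, which draws neutrophils, was at 66.1 and 66.1 FPKM in Ctrl-GM, 41.1 and 44.3 in Cas9M3-GM, 6.36 and 7.53 in Ctrl-D3, and 42.0 and 24.0 in Cas9M3-D3. Control cells held far less at day 3 than in growth medium, and knockdown cells stood below control in growth medium and above it at day 3. It rose at day 3 (adjusted p = 0.026), and its difference of differences was 2.81 (SE 0.39), adjusted p = 0.266, and 2.87 in the reduced fit. Cxcl5, of the same family, was at 400.5 and 237 FPKM in Ctrl-GM, 236 and 122 in Cas9M3-GM, 32.0 and 46.6 in Ctrl-D3, and 296 and 161 in Cas9M3-D3, with 3.36 (SE 0.68). The monocyte chemokine gene Ccl7 had 2.33 (SE 0.66) and the fractalkine gene Cx3cl1 had 2.10 (SE 0.41), and both rose at day 3 (adjusted p = 0.048 and 0.030). Lif, a myoblast growth cytokine, was the negative member at -2.59 (SE 0.58). Il33, an alarmin, was the member that fell at day 3 (log2 -2.68, adjusted p = 0.031), its effect in growth medium was -2.11, and its difference of differences was -0.57 (SE 0.53). Saa3 and Lcn2 separated the growth medium libraries by replicate number, Lcn2 with 99.5 and 40.8 FPKM in replicate 1 against 0.0395 and 0.104 FPKM in replicate 2, and their errors of 3.51 and 4.94 were larger than their values of 2.55 and 2.52.

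Cell cycle genes stood lower against control at day 3 than in growth medium. In the DNA replication list the median was -0.98 over 38 tested members, 37 below 0, and 18 were negative in all 16 choices (13.6% of all genes) with 0 positive. Cdc6, which loads the replicative helicase, was at 1.59 and 1.11 FPKM in Ctrl-GM, 2.85 and 3.56 in Cas9M3-GM, 1.42 and 1.39 in Ctrl-D3, and 0.720 and 0.495 in Cas9M3-D3. The knockdown libraries were both above control in growth medium and both below it at day 3. Cdc6 thus had a difference of differences of -2.31 (SE 0.43), adjusted p = 0.266. Ccne2, the cyclin of S phase entry, had -2.30 (SE 0.41) with the same arrangement. Rrm2, which makes deoxynucleotides, was at 121 and 127 FPKM in Ctrl-GM, 182 and 156 in Cas9M3-GM, 53.9 and 52.7 in Ctrl-D3, and 22.0 and 21.7 in Cas9M3-D3. It fell at day 3 (adjusted p = 0.027) and had a small error, -1.73 (SE 0.24), adjusted p = 0.266. The helicase genes Mcm2 and Mcm3 had -1.36 (SE 0.25) and -1.48 (SE 0.27), and E2f1 -0.04 (SE 0.37). E2f2, another factor of that family and no member of the list, was among the 12 genes with the smallest p and was chosen after its value was seen: it was at 0.850 and 0.594 FPKM in Ctrl-GM, 1.12 and 0.770 in Cas9M3-GM, 4.72 and 3.90 in Ctrl-D3, and 0.316 and 0.321 in Cas9M3-D3, with -3.74 (SE 0.46), adjusted p = 0.266.

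In the mitosis and spindle list the median was -1.21 over 35 tested members, 34 below 0, and 18 were negative in all 16 choices (13.6% of all genes). Top2a, which untangles chromosomes, was at 17.5 and 45.6 FPKM in Ctrl-GM, 27.5 and 40.0 in Cas9M3-GM, 21.9 and 17.9 in Ctrl-D3, and 5.64 and 5.30 in Cas9M3-D3, with -2.07 (SE 0.63). Mki67, the proliferation marker, was at 16.6 and 24.6 FPKM in Ctrl-GM, 30.7 and 37.9 in Cas9M3-GM, 18.0 and 11.9 in Ctrl-D3, and 6.90 and 5.33 in Cas9M3-D3. Both knockdown libraries were above both control libraries in growth medium and below them at day 3, with -2.01 (SE 0.43). Pttg1, securin, had 0.05 (SE 1.28). Of these 73 replication and mitosis genes, 2 fell at day 3, Rrm2 and Mcm2 (0.687% of all genes). Mitotic genes were higher in Ctrl-GM replicate 2 than in Ctrl-GM replicate 1, all 35 of them, among them Ube2c with 114 against 11.9 FPKM. The list medians were -1.46 and -1.99 without Ctrl-GM replicate 2 and -0.38 and -0.44 without Ctrl-GM replicate 1. The replication list was at -0.65 without Cas9M3-GM replicate 2, and in the reduced fit the medians were -1.18 and -1.71. Replication and mitosis medians were -1.21 and -1.77 from the replicate 1 libraries alone. From the replicate 2 libraries alone they were -0.78 and -0.77. Among genes of cell cycle exit, Cdkn1a, the inhibitor p21, had -1.42 (SE 0.47), or -0.90 without Ctrl-GM replicate 2, and Cdkn1b 0.41 (SE 0.21), and the median over 18 tested members was -0.08.

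Several genes that answer amino acid shortage fell at day 3 and had effects between -0.13 and 0.68 in growth medium. The list of the integrated stress and unfolded protein responses had a median of -0.41 over 27 tested members, or -0.25 in the reduced fit, with 11 negative and 2 positive in all 16 choices (13.6% and 11.7% of all genes). Of these genes 6 fell at day 3 (0.687% of all genes): Slc7a5, Mthfd2, Psat1, Asns, Phgdh and Chac1. Most of these carry out amino acid uptake or synthesis. Slc7a5, the large neutral amino acid carrier, was at 14.4 and 13.3 FPKM in Ctrl-GM, 19.4 and 25.7 in Cas9M3-GM, 39.4 and 30.3 in Ctrl-D3, and 8.77 and 9.67 in Cas9M3-D3. Knockdown was above control in growth medium and below it at day 3, with -2.58 (SE 0.30), adjusted p = 0.266. Psat1, of serine synthesis, was at 32.8 and 38.3 FPKM in Ctrl-GM, 36.1 and 44.6 in Cas9M3-GM, 51.2 and 55.0 in Ctrl-D3, and 15.5 and 15.1 in Cas9M3-D3, with -1.97 (SE 0.26), and Mthfd2, a mitochondrial folate enzyme, had -2.37 (SE 0.32). Asns and Phgdh had -1.71 (SE 0.25) and -1.28 (SE 0.21). Atf4, whose product acts on these genes, had -0.56 (SE 0.70), and the chaperone genes Hspa5 and Hsp90b1 of the unfolded protein response had -0.42 (SE 0.35) and -0.22 (SE 0.34). Genes of cholesterol and fatty acid synthesis had a median of -0.69 over 26 tested members, 14 of them negative in all 16 choices (13.6% of all genes) and 0 called at day 3, among them Fdps at -1.28 (SE 0.56); the median was -0.42 without Cas9M3-GM replicate 2 and -0.33 in the reduced fit.

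Among signalling genes, single members stood out from lists with medians between -0.61 and 0.25. Dll1, a Notch ligand, was at 0.514 and 0.736 FPKM in Ctrl-GM, 0.916 and 1.08 in Cas9M3-GM, 9.26 and 8.15 in Ctrl-D3, and 1.41 and 1.52 in Cas9M3-D3. It fell at day 3 (adjusted p = 0.020) and its exons overlap A930024N18Rik on the other strand. Its difference of differences was -3.10 (SE 0.36), adjusted p = 0.266, while Notch1, a receptor, had -1.23 (SE 0.53) and the list median was -0.61 over 12 tested members, or -0.28 without Ctrl-D3 replicate 1. Nog, a BMP antagonist, was at 0.204 and 0 FPKM in Ctrl-GM, 2.36 and 1.29 in Cas9M3-GM, 3.06 and 2.84 in Ctrl-D3, and 1.63 and 1.65 in Cas9M3-D3. Knockdown libraries exceeded control in growth medium and were below it at day 3, with -4.21 (SE 0.80). The Ctrl-GM levels of Nog are near 0, and its value ranged from -6.08 to -1.915 over the settings. Smad6, Id1 and Smad7, induced by BMP and TGF-beta signals, rose at day 3 (adjusted p = 0.026, 0.048 and 0.033) and had 1.35 (SE 0.33), 1.37 (SE 0.42) and 0.86 (SE 0.34); the median of that list was 0.25 over 22 members. Igfbp3, which binds insulin-like growth factors, was at 23.1 and 17.9 FPKM in Ctrl-GM, 28.6 and 14.5 in Cas9M3-GM, 9.85 and 10.4 in Ctrl-D3, and 58.7 and 69.4 in Cas9M3-D3. It rose at day 3 (adjusted p = 0.026) and had 2.64 (SE 0.47), in a list of 16 tested members with a median of 0.05. Wnt10a had -2.69 (SE 1.26), with -1.16 and -4.21 without Cas9M3-GM replicate 1 and 2, and Wnt5b 1.99 (SE 0.67), at a list median of 0.04 over 22. Col15a1, a basement membrane collagen, fell at day 3 (adjusted p = 0.019) with -3.21 (SE 0.45), whereas the fibrillar Col1a1 and Col3a1 had -0.49 (SE 1.18) and -0.26 (SE 0.49); the collagen list had a median of -0.26 over 35. Mmp3, a stromelysin, had 4.27 (SE 1.53), or 2.47 without Ctrl-GM replicate 1, and Plau -2.42 (SE 0.65), at a list median of 0.10 over 18. With 1 library left out, the medians of the TGF-beta, Igf, Wnt, collagen and metalloproteinase lists lay between -0.56 and 0.46, and all but the TGF-beta list changed sign in some of these fits.

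Other genes of the m6A machinery had differences of differences below 1 in size. The writer genes ranged from -0.85 (SE 0.35) for Virma, which guides the complex, to 0.23 (SE 0.36) for Mettl5, a ribosomal RNA methyltransferase, with a median of -0.25 over 11 members, Mettl3 included, and 3 negative in all 16 choices (13.6% of all genes), Mettl14, Virma and Mettl16. Mettl14, the partner of METTL3, was at 2.52 and 2.19 FPKM in Ctrl-GM, 2.31 and 2.20 in Cas9M3-GM, 3.23 and 2.81 in Ctrl-D3, and 2.25 and 1.70 in Cas9M3-D3. The Cas9M3-D3 libraries were below both Ctrl-D3 libraries and overlapped those in growth medium, with -0.54 (SE 0.33). Wtap, which anchors the complex, was higher in all 4 knockdown libraries than in any control, 0.58 in growth medium and 0.53 at day 3 on the log2 scale, with -0.05 (SE 0.23); neither effect was called. The readers and erasers had a median of -0.19 over 10 tested members, from -0.48 (SE 0.27) for the reader Ythdf3 to 0.31 (SE 0.28) for the eraser Fto. Other broad lists had these medians: nuclear respiratory chain genes at 0.10 over 30, mitochondrially encoded genes at -0.01 over 13, p53 targets at 0.03 over 26, immediate early genes at 0.01 over 24 and muscle energy metabolism at -0.15 over 20. The respiratory chain median was -0.31 without Ctrl-GM replicate 2 and 0.61 without Ctrl-GM replicate 1, the mitochondrial one -0.35 and 0.10, and the p53 one 0.30 and -0.22, while the immediate early median lay between -0.13 and 0.17 with 1 library left out. The muscle energy median was -0.49 without Ctrl-GM replicate 2 and -0.61 in the reduced fit. From the replicate 1 and replicate 2 libraries alone it was -0.51 and -0.27. In that list 6 of 20 members were negative in all 16 choices (13.6% of all genes), and Ckm, the muscle creatine kinase, had -4.35 (SE 0.77) and fell at day 3 (adjusted p = 0.021). Mb, myoglobin, had -2.98 (SE 1.87) with a mixed sign, and -3.37 and -2.60 from the replicate 1 and replicate 2 libraries alone. Pygm, muscle glycogen phosphorylase, had -2.76 (SE 0.92). Cytosolic ribosomal protein genes had a median of 0.68 with 31 of 31 above 0, with 1.28 and 0.08 without Ctrl-GM replicate 1 and 2; in replicate 2 many of these genes were at their highest of the 8 libraries.

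**Figure D4:**
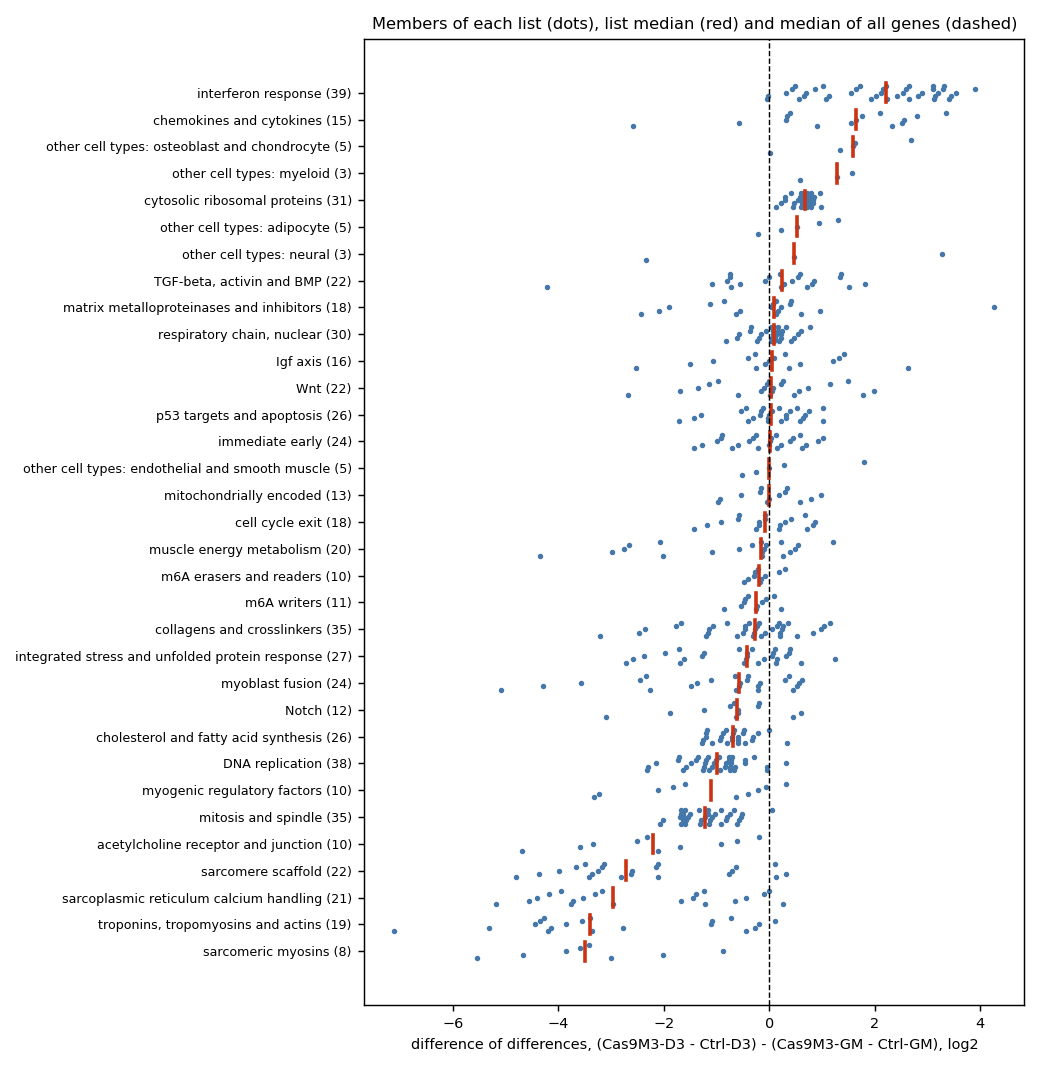
Difference of differences (x axis, log2) of each tested member (dots, spread vertically to part them) of the 33 gene lists (y axis, number of tested members in brackets), with the list median in red and the median of all 13824 genes as the dashed line. Contractile, calcium and receptor lists lie lowest, down to a median of -3.50, and the interferon list highest, at 2.22.

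Some genes differed in the sign of the effect and not only in its size. Among the 409 genes with a value of at least 2 in size and 1 sign in all 16 choices, 81 had all 4 library pairs on one side of 0 in growth medium and all 4 on the other side at day 3. The share of this arrangement among all tested genes was not counted. The examples given here were chosen after their values were seen. Ccl11, the eosinophil chemokine eotaxin, was at 27.9 and 17.9 FPKM in Ctrl-GM, 3.46 and 1.96 in Cas9M3-GM, 9.17 and 10.9 in Ctrl-D3, and 30.7 and 15.2 in Cas9M3-D3. Knockdown was below control in growth medium and above it at day 3, with 4.16 (SE 0.61), adjusted p = 0.266. C1qtnf3, a secreted C1q-like protein, was at 2.63 and 3.28 FPKM in Ctrl-GM, 7.12 and 25.5 in Cas9M3-GM, 141 and 135 in Ctrl-D3, and 45.1 and 45.5 in Cas9M3-D3, which is the opposite arrangement, with -3.77 (SE 0.76). Mest, an imprinted gene that overlaps Copg2 on the other strand, had the same arrangement at levels of up to 1.36 FPKM, with -3.997 (SE 0.75). S1pr3, a lipid receptor, had -2.75 (SE 0.71) and Rbm24, a muscle splicing factor, -2.88 (SE 0.90).

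The genes with the smallest p had close replicates in all 4 groups, and they too were chosen after their values were seen. Aif1l, an actin-binding protein gene that overlaps Gm13442 on the other strand, was at 4.81 and 4.65 FPKM in Ctrl-GM, 3.87 and 3.84 in Cas9M3-GM, 38.7 and 37.6 in Ctrl-D3, and 4.80 and 4.59 in Cas9M3-D3. Its level was high in Ctrl-D3 alone, the growth medium groups were separate by little, and the difference of differences was -2.71 (SE 0.21), adjusted p = 0.138. Sparcl1, a matrix protein, was at 28.2 and 31.3 FPKM in Ctrl-GM, 31.2 and 35.2 in Cas9M3-GM, 4.68 and 4.36 in Ctrl-D3, and 20.6 and 26.0 in Cas9M3-D3. Ctrl-D3 alone was low, with 2.17 (SE 0.26), adjusted p = 0.266. Rab32, a GTPase of lysosome-related organelles, was at 56.0 and 48.7 FPKM in Ctrl-GM, 57.6 and 53.9 in Cas9M3-GM, 16.3 and 18.2 in Ctrl-D3, and 65.3 and 67.0 in Cas9M3-D3, again low in Ctrl-D3 alone, with 1.84 (SE 0.23). Gstt1, of glutathione transfer, had 2.09 (SE 0.27), and Tuba4a, a tubulin gene that overlaps Stk16, -1.77 (SE 0.24). In the reduced fit these 5 values were -2.69, 2.19, 1.89, 2.18 and -1.98.

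Markers of other cell types were read beside these results. Of 15 myeloid markers, 7 were listed at 0 in every library, 12 never reached 0.5 FPKM, and the summed level was 8.46 to 9.55 FPKM in Ctrl-D3, 20.8 to 25.1 in Cas9M3-D3, 17.3 to 26.1 in Ctrl-GM and 17.0 to 19.5 in Cas9M3-GM. Cd14, an endotoxin co-receptor, made up most of that sum and had 1.57 (SE 0.25). The pan-leukocyte gene Ptprc and the macrophage gene Adgre1 did not pass the filter. Of 16 osteoblast and chondrocyte markers, 5 were tested, with a median of 1.59 and a sum of 9.54 to 13.8 FPKM in Ctrl-D3 against 27.1 to 27.2 in Cas9M3-D3, mostly Sox9 and Runx2. In growth medium that sum was 14.2 to 21.3 FPKM in Ctrl-GM and 14.4 to 29.9 in Cas9M3-GM, a range that holds the Cas9M3-D3 values. Of 13 adipocyte markers 5 were tested, with a median of 0.54 and sums of 72.5 to 73.3 FPKM in Ctrl-D3, 105 to 111 in Cas9M3-D3, 85.9 to 235 in Ctrl-GM and 74.0 to 182 in Cas9M3-GM. Of 16 endothelial and smooth muscle markers 5 were tested, with a median of 0.00, and of 15 neural markers 3, with a median of 0.47. The neural values ran from -2.33 for Tubb3 to 3.28 for Stmn2. The neural sum was 3.17 to 28.8 FPKM in Ctrl-GM and 6.21 to 45.6 in Cas9M3-GM. At day 3 it was 10.9 to 11.2 FPKM in Ctrl-D3 and 8.82 to 11.4 in Cas9M3-D3. Without Ctrl-GM replicate 1 the myeloid and adipocyte medians were -0.05 and -0.09, and without Cas9M3-GM replicate 1 the osteoblast median was 0.82. The part of other cell types in the interferon and chemokine values was not tested.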

How the data were processed

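RNA was sequenced from the 8 libraries of the knockdown table, 2 in each of 4 groups taken from the labels; the libraries of the other time course and of overexpression were not used here. For the deposited FPKM values the authors used HISAT2 (GRCm38) for alignment, featureCounts for reads per gene and the fpkm function of DESeq2. Depth was recovered from these values as whole reads (98.7 to 98.9% of low values within 0.05 of a whole number). The filter asked for 0.5 FPKM or more in 2 or more libraries, and log2(FPKM + 0.1) was fitted over all 8 libraries with limma 3.58.1 (R 4.3.3, variance trend), with Benjamini-Hochberg adjustment over all 13824 genes and a call at an adjusted p of at most 0.05. Fold changes on this scale understate those of low genes.

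The members and lists were chosen with earlier results of these data known. Named by rule were 11 genes the study treats in C2C12 differentiation and fusion and, as no list held a gene called for stage dependence, the 2 members of each list with the largest size; the parts of the rule that took called genes gave none. All other genes named were chosen after their values were seen, for their roles or sizes. Same-numbered libraries deviated together (correlations 0.28 to 0.68, from the data), so the numbers were taken to pair the libraries and a fit with the replicate number as a block was run. Alternatives were another pseudocount, filter, scaling, trend and sample set, each library left out, and, chosen after seeing the data, both growth medium libraries of replicate 2 left out and array weights. The fit was tested on simulated data. Coordinates and antisense overlaps are from GENCODE M21 and promoters from RefSeq (GRCm38.p6). Figures and tables used Python 3.11.15, pandas 2.3.3, numpy 2.4.6 and matplotlib 3.10.9. A few members of the lists are not reported here.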

Additional observations from a re-analysis of the deposited data

Results flagged for a closer look

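In 23 of the genes named for their lists or values, all 4 pairs of a knockdown and a control library went one way in growth medium and the other way at day 3. None of these differences passed adjustment in the test across all genes, so the opposite directions were not shown by that test. Some of the 23 genes had been picked for this arrangement, so their number is partly set by that choice. The share of this arrangement over all tested genes was not counted. The difference of differences was negative, with knockdown above control in growth medium and below it at day 3, for Nog (-4.21), Mest (-3.997), C1qtnf3 (-3.77), Dok7 (-3.58), Mfsd2a (-3.53), Dll1 (-3.10), Rbm24 (-2.88), S1pr3 (-2.75), Slc7a5 (-2.58), Cdc6 (-2.31), Ccne2 (-2.30), Mki67 (-2.01), Rrm2 (-1.73), Atf3 (-1.43), Cdkn1a (-1.42) and Ythdf3 (-0.48). It was positive, with knockdown below control in growth medium and above it at day 3, for Ccl11 (4.16), Camp (3.91), Cxcl5 (3.36), Cxcl1 (2.81), Phex (2.69), Gstt1 (2.09) and Cd14 (1.57).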

How the results depend on the processing

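The count of genes called for the difference of differences was 0 in every alternative fixed at the start and without any single library. Of the alternatives chosen after seeing the data, array weights gave 0, pseudocount 1 with the replicate block gave 1 (lower, Actc1), and leaving out both growth medium libraries of replicate 2 gave 265 (102 higher, 163 lower, 178 of them at least 2 in size); fewer libraries then set the spread. Over 19 settings the smallest adjusted p was 0.0147 to 1 and the count at an unadjusted p under 0.05 was 508 to 3837. In growth medium, no variance trend gave 1 call (higher, at least 2 in size), leaving out both replicate 2 libraries gave 3 (1 higher, 2 lower, 3 at least 2 in size), and leaving out 1 library gave 0 to 24 (higher 0 to 13, lower 0 to 11, 0 to 15 at least 2 in size), with 24 without Ctrl-GM replicate 1.

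At day 3 the calls were 453 (269 higher, 184 lower) with pseudocount 1, 442 (311 higher, 281 at least 2 in size) without the trend, 735 (424 higher, 311 lower) with pseudocount 1 and the replicate block, 3325 (1682 higher, 1643 lower, 600 at least 2 in size) with array weights, 2828 (1491, 1337 and 574) from the day 3 libraries alone and 2800 (1484, 1316 and 588) without both growth medium libraries of replicate 2; quantile scaling gave 152 lower calls. Leaving out 1 library gave 0 to 887 (higher 0 to 519, lower 0 to 368, 0 to 324 at least 2 in size), 0 without any day 3 library 886 without Ctrl-GM replicate 1 and 887 without Ctrl-GM replicate 2. With the replicate block, by which libraries of one number are paired, day 3 calls were 505 (319 higher, 186 lower, 260 at least 2 in size) and the difference of differences kept 0 calls (smallest adjusted p 0.18). The cause of these shifts was not tested.

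Of 98 named genes under 19 settings, 5 values changed sign, all with 1 library left out: the ranges over the libraries left out were -0.957 to 0.02568 for Mettl3, -0.04002 to 1.589 for Ndufa1, -0.1252 to 2.085 for Rplp2, -0.05112 to 2.627 for Lyz2 and -0.3406 to 2.244 for Plin4. The sign was turned without Cas9M3-GM replicate 1 for Mettl3, without Ctrl-GM replicate 2 for Ndufa1 and Rplp2, and without Ctrl-GM replicate 1 for Lyz2 and Plin4. With these replicates even the value of Actc1 (-7.11) did not pass adjustment, so a gene without a call is not shown to be alike in the stages. Ctrl-GM replicate 2 was also the shallowest library (14230094 reads), and depth and replicate spread were not separated.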
